A study of Zea mays with 12 samples.

Results

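Whole maize seeds of the *ereb92* mutant after 6 h of imbibition were compared, across all genes, with dry seeds of the same genotype at 0 h. The 3 *ereb92*_6h and the 3 *ereb92*_0h libraries were chosen by their labels and make up 6 of the 12 libraries of the series. The other 6 are from the wild type KN5585 at 6 h and at 0 h, with 3 libraries each. The mutant carries a CRISPR/Cas9 knockout of *ZmEREB92*, a gene for an AP2/ERF transcription factor, in the KN5585 background, and the study used the 1 line *ereb92-6* for its RNA-seq. Seeds of both genotypes were surface-sterilized, laid on wet filter paper and kept in the dark, and poly(A) RNA was sequenced. The study asked how loss of the factor changes the transcripts of imbibing seeds and went on to hormone and cold genes. Its cold genes included cellulose synthases (*CESA*), dehydration-responsive element-binding factors (*DREB*) and CBL-interacting protein kinases (*CIPK*). Among up-regulated genes it also found enrichment of MAP kinase signalling, UDP-glycosyltransferases, carbohydrate metabolism and the formation of cell walls. The question here is which functions were switched on or lost within the first hours of water uptake. Functions that the study had already named are included.

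A mature maize seed is dry and stores messenger RNA, oil, starch and protein together with the late embryogenesis abundant (LEA) proteins and chaperones that protect it in the dry state. When water enters, respiration and translation start on stored components, and transcription of new messages follows before the radicle emerges. Genes for transcription factors, calcium signalling and cell wall loosening are known to respond early to water uptake, to touch and to cold, while the LEA and storage messages decline as germination proceeds.

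Each library held between 12771663 and 15383586 counts. Genes with at least 1 count numbered 30885 to 32080 in *ereb92*_6h, against 29195 to 30600 in *ereb92*_0h, and the 20 genes with most counts took 11.3 to 17.8% of the counts, against 16.5 to 24.2%. Logged values correlated between replicates with r of 0.902 to 0.929 in *ereb92*_6h and 0.930 to 0.941 in *ereb92*_0h. KN5585_6h replicate 1 stood apart from the other 11 libraries, with 23104 genes. Levels are given in CPM, that is counts scaled to a common library total by trimmed-mean factors, in which 3 counts correspond to 0.188 to 0.237 CPM, or per length in FPKM. The seed label was checked against tissue markers. Embryo globulins and oleosins were abundant, with summed levels of 32878 to 80880 FPKM in *ereb92*_6h, against 53271 to 147240 FPKM in *ereb92*_0h, and all 9 were tested. Aleurone amylases and aleurain summed to 734 to 2165 FPKM, against 963 to 2296 FPKM, the starch synthesis genes of the endosperm to 29.8 to 53.6 FPKM, against 43.5 to 70.2 FPKM, and the zeins to 10.6 to 86.7 FPKM, against 54.1 to 108 FPKM. Photosynthesis genes, which mark green tissue, summed to 86.2 to 131 FPKM, against 109 to 159 FPKM, with 23 of 76 at 0 in all 6 libraries. No gene of these marker lists passed the test, and their part in the results was not tested. In whole seeds, fewer cells of a type and less RNA per cell cannot be told apart. *ZmEREB92* itself (Zm00001d000339) had 4146, 3115 and 895 counts in *ereb92*_6h, against 126, 17 and 82 counts in *ereb92*_0h, a log2 fold change of 5.26 (SE 0.76, edgeR adjusted p = 0.00537). In CPM it had 303, 201 and 64.5 in *ereb92*_6h and 7.89, 1.34 and 5.5 in *ereb92*_0h, beside 13.1, 4.44 and 32 in KN5585_6h and 8.78, 1.59 and 2.04 in KN5585_0h. The knockout target was thus higher in every imbibed mutant library than in any wild type library. An edited gene can still be transcribed, so these counts do not check the genotype labels, which were not checked in any other way here. *ZmEF1a* (Zm00001d009870), used as a reference in qPCR, had 317, 328 and 312 CPM in *ereb92*_6h, against 318, 361 and 345 CPM in *ereb92*_0h, with a log2 fold change of -0.10 (SE 0.19, edgeR adjusted p = 0.843).

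Imbibition of *ereb92* seeds was followed by a one-sided gain of transcripts, relative to the bulk of genes. Of 55529 genes in the table, 23575 had enough counts to be tested, and 1385 of these (5.87%) were higher in *ereb92*_6h, while 25 (0.106%) were lower. A gene was called up- or down-regulated where its fold change was at least 2 and its adjusted p was under 0.05 after Benjamini-Hochberg adjustment of the quasi-likelihood p-values of edgeR. With unadjusted p-values and an unchanged fold limit, 2593 genes (11%) were up and 207 (0.878%) down. The up-regulated genes had a median fitted log2 fold change of 2.86. The fitted value was 1 to 2 in 379 of them, 2 to 4 in 603, 4 to 8 in 361 and over 8 in 42. In the 47 genes with no count at 0 h the fitted value is no bound, and their median was 8.12. In 1382 of the 1385, all 3 values at 6 h lay above all 3 at 0 h, where 15% of all tested genes did so. All 25 down-regulated genes were without overlap in the other direction, where 9.49% of all tested genes did so. The calls were made on these same values, so the separation follows largely from the call and adds no support. The same holds wherever called genes are described below as without overlap. The median change over all tested genes was -0.02 on the log2 scale. The scaling sets this value near 0, so a general gain or loss of RNA cannot be seen here. The p-values measure the spread between these libraries, since the labels give no source for each replicate, and the study's methods call them biological replicates.

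Both silent and active genes were among those that rose. Switched on were 112 genes, with at most 3 counts in every *ereb92*_0h library, more than 3 in every *ereb92*_6h library and a rise that passed the test. Of all up-regulated genes, 47 had no count at all at 0 h. Genes near 0 at 0 h were tested mainly through their 6 h counts, and all 47 tested genes at 0 FPKM rose. These counts are therefore no measure of a response. At the other end, 480 up-regulated genes already had at least 100 counts in each *ereb92*_0h library. The 1385 genes together took 14.7, 10.0 and 7.26% of the counts in *ereb92*_6h, against 1.77, 1.64 and 1.68% in *ereb92*_0h. Replicate 1 of *ereb92*_6h thus carried the largest share and replicate 3 the smallest, and each exceeded every dry library. The number of up-regulated genes moved with single libraries: it was 834, 902 and 742 without *ereb92*_0h replicates 1, 2 and 3, and 810 without *ereb92*_6h replicate 1. The switched-on genes numbered 74 without *ereb92*_0h replicate 3 and 45 and 57 without *ereb92*_6h replicates 1 and 2. The number of down-regulated genes was 6, 11 and 5 without *ereb92*_0h replicates 1, 2 and 3, 10 without *ereb92*_6h replicate 1 and 139 without *ereb92*_6h replicate 3. Same-numbered libraries deviated together. Once replicate was added to the model as a block, the up-regulated genes numbered 1524, of which 1274 were shared, and the down-regulated genes 49, of which 17 were shared.

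To see which functions these genes serve, 64 lists were built from the deposited names, descriptions and protein domains and grouped into 11 roles. Together they held 8297 genes, of which 4371 were tested, 443 rose and 3 fell. Against the 5.87% of all tested genes, 20% of the tested transcription factors rose (122 of 611), 19.8% of the cell wall genes (35 of 177), 15.7% of the signalling genes (116 of 741), 14.2% of the transporters (31 of 218) and 13% of the metabolic genes (80 of 615). The share was 9.23% for defence genes (6 of 65), 5.98% for redox genes (14 of 234) and 4.52% for growth genes, that is the exocyst, the cytoskeleton, histones and the cell cycle (14 of 310). It was 1.98% for the gene expression machinery (22 of 1111), 1.5% for the stored seed programme (2 of 133) and 0.621% for organelle energy genes (1 of 161). These counts moved with single libraries, and the 443 were 272 and 255 without *ereb92*_0h replicates 1 and 3 and 279 without *ereb92*_6h replicate 1. Without *ereb92*_0h replicates 1, 2 and 3 the signalling count was 63, 68 and 59, the transporter count 14, 15 and 15 and that of the gene expression machinery 10, 10 and 7, and without *ereb92*_6h replicates 1 and 2 they were 57 and 69, 15 and 19, and 9 and 12. The transcription count was 78 without *ereb92*_0h replicate 3, and the metabolic count 49 and 48 and the redox count 8 and 9 without *ereb92*_0h replicates 1 and 3. Without *ereb92*_6h replicate 1 the redox count was 9 and the organelle count 9 (3 with the replicate block), and the defence count was 3 without that library or *ereb92*_0h replicate 3. The stored seed count was 0 or 1 without any 1 library but *ereb92*_6h replicate 3. The cell wall and growth counts stayed within 1.5 times of their values in each case. The shares are descriptions, and members of a list can share sequence or lie next to each other. Of the up-regulated genes, 942 were in no list, 193 had no description and 95 were transcripts that the authors assembled outside the reference annotation.

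**Figure D1:**
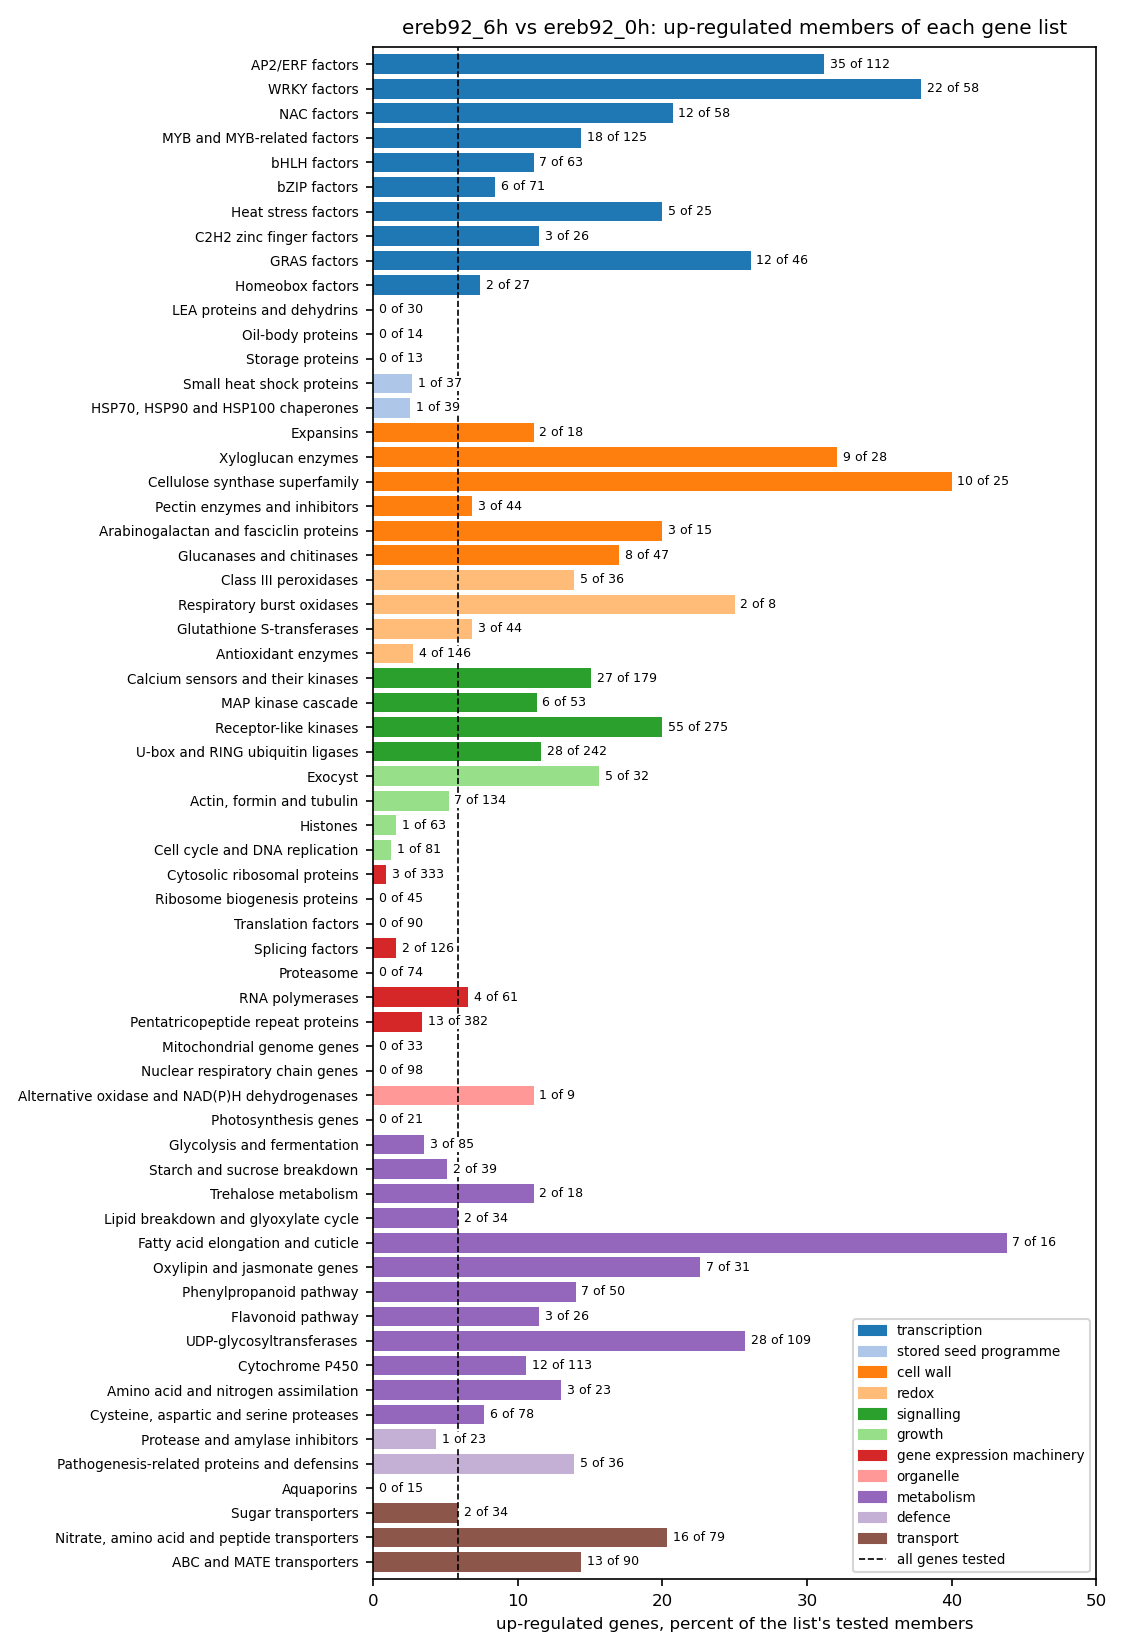
Percent of the tested members of each list called up at 6 h in the *ereb92* comparison, for lists with at least 8 tested members; the dashed line marks the 5.87% of all tested genes. Fatty acid elongation (43.8%), cellulose synthases (40%) and WRKY factors (37.9%) stand at the top, and LEA proteins, oil-body proteins and the proteasome at 0.

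A formin, a protein that nucleates actin filaments, had the largest fitted rise of the genes ranked. These were the up-regulated genes with a description, no overlap and at least 1 FPKM in a group. Formin-like protein 18 (Zm00001d034221, chromosome 1, 287023471 to 287024778, B73 RefGen_v4) had 430, 211 and 207 CPM in *ereb92*_6h, against 0.0626, 0 and 0 CPM in *ereb92*_0h. Its 0 h libraries held a single count between them, so the ratio of 6 h to 0 h was 12200 with an exact 95% counting interval of 2180 to 480000, which covers counting error only. A putative cellulose synthase-like gene (Zm00001d024531, chromosome 10, 76628321 to 76635128) had 21.8, 28.9 and 15 CPM in *ereb92*_6h, against 0, 0 and 0 CPM in *ereb92*_0h, at least 105-fold higher when 0 h is set to 3 counts per library. A putative plasma membrane calcium-transporting ATPase 13 (Zm00001d014166), of the kind that pumps calcium out of the cytosol, had 59.5, 137 and 23.7 CPM in *ereb92*_6h, against 0, 0 and 0.0671 CPM in *ereb92*_0h, a ratio of 3300 with an exact 95% counting interval of 591 to 130000. All 3 genes were at or near 0 in every dry library and present in every imbibed one.

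Several further genes had no count in any dry library. A protein kinase gene (Zm00001d040398) was at least 81.3-fold higher, the auxin-responsive *SAUR33* gene Zm00001d032091 at least 80.7-fold, a dehydration-responsive element-binding gene (Zm00001d021205) at least 70.3-fold, a lipid phosphate phosphatase 2 gene (Zm00001d038908) at least 58.7-fold and a proline-rich protein gene (Zm00001d026297) at least 29-fold. A second cellulose synthase-like gene (Zm00001d049510) had 53.2, 27.2 and 38.7 CPM in *ereb92*_6h, against 0.0626, 0 and 0.0671 CPM in *ereb92*_0h, a ratio of 852 with a counting interval of 235 to 7040. U-box domain-containing protein 21 (Zm00001d028374), a ubiquitin ligase, had 12.3, 89.7 and 18 CPM in *ereb92*_6h, against 0.188, 0 and 0 CPM in *ereb92*_0h, a ratio of 609 with a counting interval of 208 to 2960, and its imbibed libraries differed more among themselves than those of the other genes named here. The tetratricopeptide repeat gene Zm00001d047661 had 8.05, 1.42 and 2.74 CPM in *ereb92*_6h, against 0, 0 and 0 CPM in *ereb92*_0h, at least 19.5-fold higher. It was the only 1 of the 12 largest rises whose call was lost without a single library, with a fitted log2 fold change of 7.93 without *ereb92*_6h replicate 1 and 8.88 with all libraries, fitted values that are no bound.

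**Figure D2:**
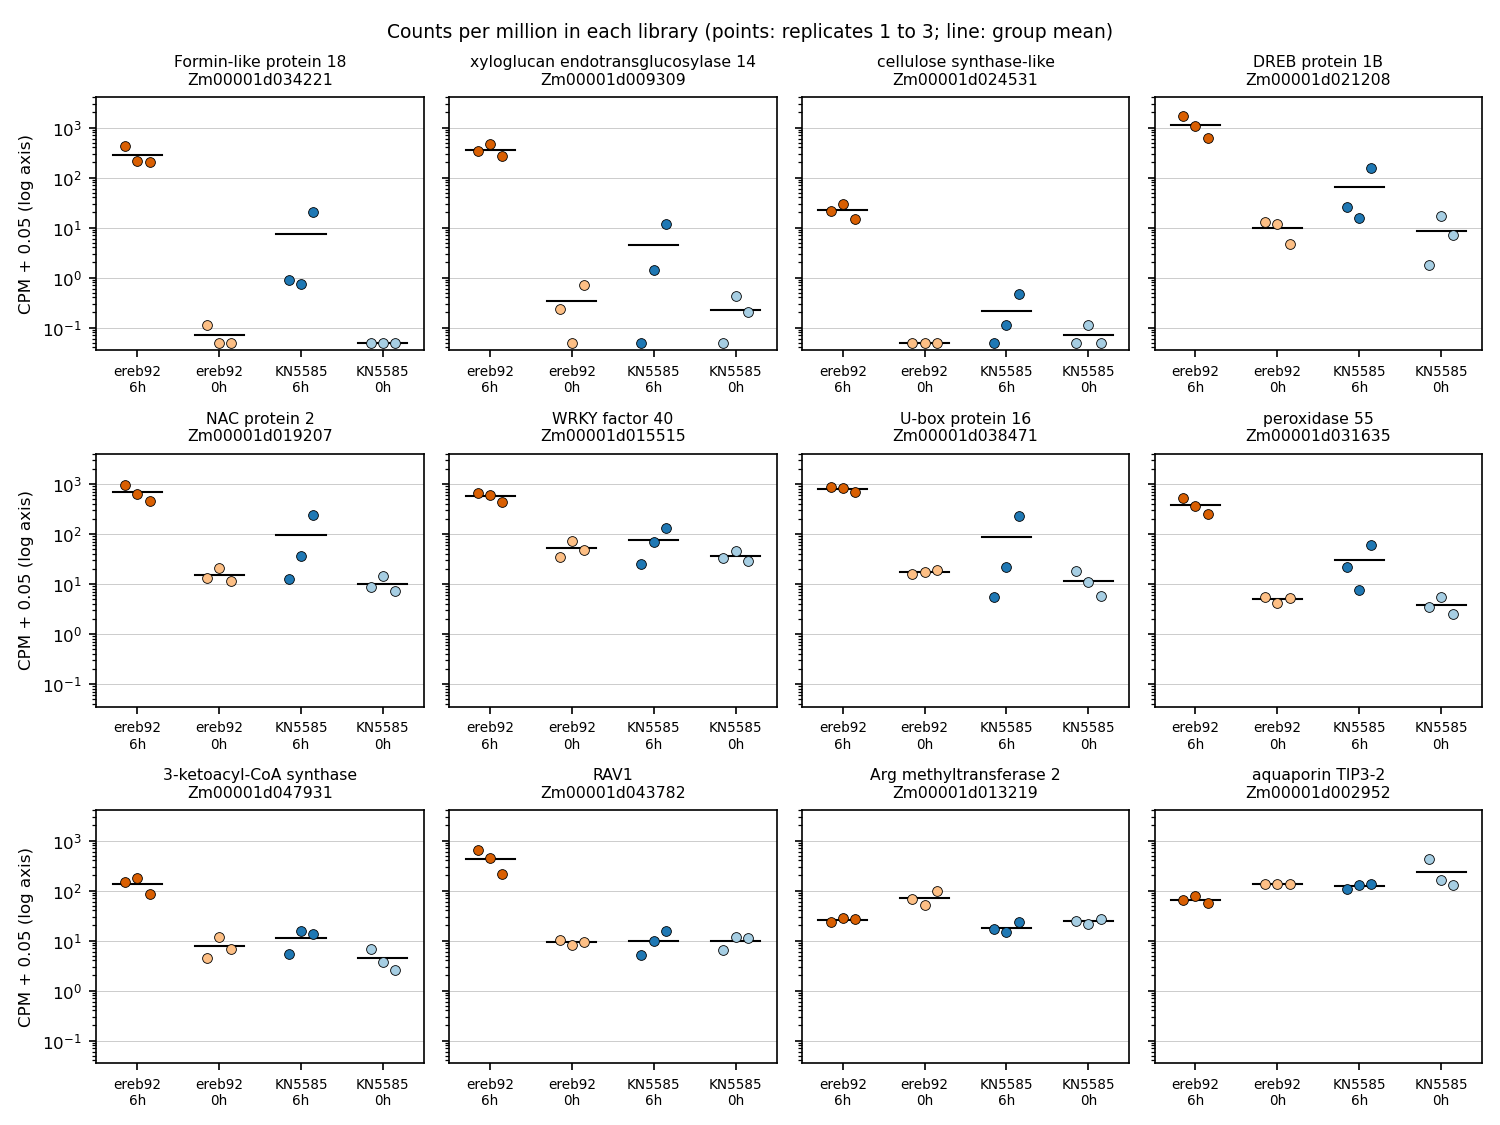
CPM plus 0.05 on a log axis for 12 genes in each library, with *ereb92*_6h, *ereb92*_0h, KN5585_6h and KN5585_0h from left to right; each point is 1 library. For 10 genes the *ereb92*_6h points lie above the *ereb92*_0h points, and for the last pair, Zm00001d013219 and Zm00001d002952, they lie below.

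Transcription factors were the role with most up-regulated members, 122. The AP2/ERF family, whose members bind GCC-box and dehydration-responsive elements, had 212 genes in the table, 112 tested and 35 up-regulated (31.2%), and its median log2 change was 0.97. Among members with at least 1 FPKM at 0 h, 25 of 96 rose, where 909 of 19135 of all tested genes at that level did (4.75%). Dehydration-responsive element-binding protein 1B (Zm00001d021208) had 1670, 1050 and 623 CPM in *ereb92*_6h, against 12.8, 11.8 and 4.56 CPM in *ereb92*_0h, a log2 fold change of 6.84 (SE 0.59, edgeR adjusted p = 0.000752). DRE-binding protein 3 (Zm00001d021207) had 1170, 779 and 390 CPM in *ereb92*_6h, against 52.7, 45.1 and 20.7 CPM in *ereb92*_0h, a log2 fold change of 4.30 (SE 0.52, edgeR adjusted p = 0.00244). Proteins of this group are known in many plants as activators of cold- and drought-responsive genes. The imbibed libraries lay far above the dry ones for both genes, and replicate 1 was the highest and replicate 3 the lowest.

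These genes sit side by side in the genome. The cluster of up-regulated genes on chromosome 7 held Zm00001d021205 (146027044 to 146027784), Zm00001d021207 (146034693 to 146035409) and Zm00001d021208 (146038525 to 146039307). A second pair on chromosome 2, Zm00001d006169 at 200397718 and Zm00001d006170 at 200403153, is annotated as C-repeat binding factors, with log2 fold changes of 8.21 (SE 0.93) and 7.63 (SE 0.56); the dry libraries held 5, 0 and 0 counts of Zm00001d006169. The summed AP2/ERF counts took 1.39, 0.982 and 0.749% of each *ereb92*_6h library, against 0.370, 0.363 and 0.352% of each *ereb92*_0h library.

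WRKY factors, known regulators of defence and of abscisic acid responses, rose in 22 of 58 tested of 130 genes (37.9%), with a median log2 change of 1.03. *WRKY40* (Zm00001d015515) had 671, 614 and 445 CPM in *ereb92*_6h, against 34.3, 72.8 and 47.1 CPM in *ereb92*_0h, a log2 fold change of 3.49 (SE 0.34, edgeR adjusted p = 0.0011). A second WRKY gene (Zm00001d010399) had 648, 523 and 308 CPM in *ereb92*_6h, against 49.3, 78.3 and 41.7 CPM in *ereb92*_0h, and another (Zm00001d012482), which was nearly silent at 0 h, had 84.9, 60.6 and 29.3 CPM in *ereb92*_6h, against 0.877, 0 and 1.01 CPM in *ereb92*_0h. For these genes the groups were without overlap, and the dry level of the first pair shows that the rise was not limited to silent genes. The WRKY count was 14, 14 and 13 without *ereb92*_0h replicates 1, 2 and 3.

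NAC factors, a plant-specific family with roles in stress and in organ boundaries, rose in 12 of 58 tested of 154 genes (20.7%, median 0.71). NAC domain-containing protein 2 (Zm00001d019207) had 951, 641 and 451 CPM in *ereb92*_6h, against 13.2, 20.6 and 11.7 CPM in *ereb92*_0h, a log2 fold change of 5.49 (SE 0.41, edgeR adjusted p = 0.000505). GRAS factors, which include the DELLA and SCARECROW-like proteins, rose in 12 of 46 tested of 92 (26.1%) and had the largest median of the transcription lists, 1.2. The GRAS gene Zm00001d006551, described as similar to chitin-inducible gibberellin-responsive protein, had 437, 345 and 283 CPM in *ereb92*_6h, against 38.2, 57.8 and 35.9 CPM in *ereb92*_0h, a log2 fold change of 3.01 (SE 0.29, edgeR adjusted p = 0.001). On chromosome 4, 3 adjacent GRAS genes (Zm00001d048602 at 1048188, Zm00001d048603 at 1051644 and Zm00001d048604 at 1058559) rose by 5.31 (SE 0.37), 2.49 and 2.13 on the log2 scale, of which the last pair was picked after its values were seen.

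Other transcription factor families rose in smaller shares. The count was 18 of 125 tested for MYB and MYB-related factors (14.4%), 7 of 63 for bHLH (11.1%), 6 of 71 for bZIP (8.45%), 5 of 25 for heat stress factors (20%), 3 of 26 for C2H2 zinc fingers (11.5%) and 2 of 27 for homeobox factors (7.41%). Heat shock factor protein 2 (Zm00001d016674) had 179, 115 and 124 CPM in *ereb92*_6h, against 10.1, 8.39 and 7.78 CPM in *ereb92*_0h, a log2 fold change of 3.99 (SE 0.26, edgeR adjusted p = 0.000383). The phosphate starvation-induced bHLH factor Zm00001d045046 had 256, 161 and 74.2 CPM in *ereb92*_6h, against 2.57, 3.09 and 4.56 CPM in *ereb92*_0h, and the zinc finger gene *ZAT11* (Zm00001d034642) had 64.6, 66.3 and 47.4 CPM in *ereb92*_6h, against 0.564, 0.475 and 1.95 CPM in *ereb92*_0h. For each of these the imbibed libraries exceeded every dry library by several fold. The smaller counts moved with single libraries. Without *ereb92*_0h replicates 1, 2 and 3 the bHLH count was 2, 3 and 3 and the bZIP count 2, 3 and 1, and without *ereb92*_6h replicate 1 the bHLH count was 4. The MYB count was 10 without *ereb92*_0h replicate 3 and 11 without *ereb92*_6h replicate 1, the heat stress factor count was 3 without *ereb92*_0h replicate 1, and the homeobox count was 1 without any 1 library but *ereb92*_6h replicate 3. The transcription lists as a whole took 3.87, 2.97 and 2.54% of the counts in *ereb92*_6h, against 1.61, 1.55 and 1.58% in *ereb92*_0h.

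Among the cell wall lists the shares were highest for the enzymes of xyloglucan and cellulose. Xyloglucan endotransglucosylase/hydrolases, which cut and rejoin the xyloglucan that tethers cellulose, rose in 9 of 28 tested of 79 genes (32.1%, median log2 change 1.55). One of them (Zm00001d009309, chromosome 8, 53994255 to 53995138) had 334, 477 and 267 CPM in *ereb92*_6h, against 0.188, 0 and 0.671 CPM in *ereb92*_0h, a log2 fold change of 10.20 (SE 0.72, edgeR adjusted p = 0.000434). Another (Zm00001d014613) had 157, 141 and 181 CPM in *ereb92*_6h, against 4.76, 4.67 and 2.08 CPM in *ereb92*_0h, a log2 fold change of 5.38 (SE 0.36, edgeR adjusted p = 0.000383). The dry libraries held a few counts at most for the first and a low level for the second, and all imbibed libraries exceeded them. The cellulose synthase superfamily rose in 10 of 25 tested of 62 (40%, median 0.81), of which 6 of 14 with at least 1 FPKM at 0 h. Cellulose synthase-6 (Zm00001d034770), a catalytic subunit, had 158, 98.4 and 94.7 CPM in *ereb92*_6h, against 16.8, 21.3 and 16.6 CPM in *ereb92*_0h, a log2 fold change of 2.68 (SE 0.27, edgeR adjusted p = 0.00114).

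Glucanases and chitinases rose in 8 of 47 (17%), among them endoglucanase 1 (Zm00001d017978), which had 214, 149 and 130 CPM in *ereb92*_6h, against 4.13, 3.4 and 4.7 CPM in *ereb92*_0h. Arabinogalactan and fasciclin proteins, which are cell surface glycoproteins, rose in 3 of 15 (20%, median 1.80), of which 1 of 11 with at least 1 FPKM at 0 h. Fasciclin-like arabinogalactan protein 6 (Zm00001d043929) had 41.3, 47.7 and 25.9 CPM in *ereb92*_6h, against 0, 0.316 and 0 CPM in *ereb92*_0h. The count of this list was 5 with the replicate block and 5 without *ereb92*_6h replicate 3. Expansins, which loosen the wall without cutting it, rose in 2 of 18 (11.1%, median 0.17), and expansin-A6 (Zm00001d012957) had 68.1, 54.2 and 46.9 CPM in *ereb92*_6h, against 14.7, 18.2 and 20.1 CPM in *ereb92*_0h. Of the 44 tested pectin enzymes and inhibitors 3 rose (6.82%) and 1 fell, and of the 31 with at least 1 FPKM at 0 h 1 rose. The polygalacturonase inhibitor 1 gene (Zm00001d006623) had 76.4, 55 and 53.2 CPM in *ereb92*_6h, against 11.7, 15.1 and 17.7 CPM in *ereb92*_0h. Without *ereb92*_0h replicates 1, 2 and 3 the glucanase count was 4, 5 and 5, and it was 5 without *ereb92*_6h replicate 1. The pectin count was 1 without *ereb92*_0h replicate 1, and the expansin count 1 without *ereb92*_0h replicate 2 or 3.

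Signalling genes followed with 116 up-regulated members. Receptor-like kinases, which perceive ligands at the plasma membrane, rose in 55 of 275 tested of 593 genes (20%, median 0.80), of which 21 of 146 with at least 1 FPKM at 0 h. The proline-rich kinase *PERK1* (Zm00001d010421) had 156, 126 and 91.4 CPM in *ereb92*_6h, against 21.8, 22.9 and 24.5 CPM in *ereb92*_0h, a log2 fold change of 2.43 (SE 0.24, edgeR adjusted p = 0.00114). Calcium sensors and their kinases, which read calcium signals in the cytosol, rose in 27 of 179 (15.1%, median 0.23). The EF-hand protein CCD1 gene (Zm00001d014491) had 704, 460 and 306 CPM in *ereb92*_6h, against 2.57, 13.2 and 20.1 CPM in *ereb92*_0h, a log2 fold change of 5.36 (SE 0.73, edgeR adjusted p = 0.00412). CBL-interacting protein kinase 4 (Zm00001d033316) had 703, 469 and 415 CPM in *ereb92*_6h, against 58.4, 103 and 81 CPM in *ereb92*_0h. The imbibed and the dry libraries of these genes did not overlap.

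The MAP kinase cascade rose in 6 of 53 tested (11.3%), and MAP kinase kinase 4 (Zm00001d018326) had 35.8, 22 and 15 CPM in *ereb92*_6h, against 1.19, 0.554 and 1.21 CPM in *ereb92*_0h. U-box and RING ubiquitin ligases, which mark proteins for breakdown, rose in 28 of 242 (11.6%). U-box domain-containing protein 16 (Zm00001d038471) had 879, 823 and 695 CPM in *ereb92*_6h, against 16, 17.7 and 19.1 CPM in *ereb92*_0h, a log2 fold change of 5.50 (SE 0.26, edgeR adjusted p = 0.000311). Its 3 imbibed values lay close together and far above the dry ones. The signalling counts moved with single libraries. Without *ereb92*_0h replicates 1, 2 and 3 the receptor-like kinase count was 30, 32 and 28, the calcium count 15, 17 and 14 and the ubiquitin ligase count 15, 16 and 14. Without *ereb92*_6h replicates 1 and 2 the receptor-like kinase count was 26 and 30 and the ubiquitin ligase count 13 and 17, and without replicate 1 the calcium count was 15. The MAP kinase count was 3 without any 1 library but *ereb92*_6h replicate 3.

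Redox genes rose in a few families. Of the class III peroxidases, secreted enzymes that act on the wall and on phenolics, 5 of 36 tested rose (13.9%). Peroxidase 55 (Zm00001d031635) had 518, 356 and 251 CPM in *ereb92*_6h, against 5.39, 4.11 and 5.17 CPM in *ereb92*_0h, a log2 fold change of 6.26 (SE 0.36, edgeR adjusted p = 0.000311), and peroxidase 24 (Zm00001d040399) had 450, 274 and 299 CPM in *ereb92*_6h, against 8.08, 15.3 and 5.84 CPM in *ereb92*_0h. Both were far higher in all imbibed libraries than in any dry one. Respiratory burst oxidases, which make superoxide at the plasma membrane, rose in 2 of 8 (25%), of which 0 of 4 with at least 1 FPKM at 0 h. Respiratory burst oxidase 3 (Zm00001d038762) had 34, 32.9 and 17.2 CPM in *ereb92*_6h, against 6.52, 4.98 and 7.11 CPM in *ereb92*_0h. Glutathione S-transferases rose in 3 of 44 (6.82%), and glutathione S-transferase 2 (Zm00001d024839) had 437, 236 and 312 CPM in *ereb92*_6h, against 31.8, 19.9 and 22.1 CPM in *ereb92*_0h. Antioxidant enzymes such as catalases, superoxide dismutases and glutaredoxins rose in 4 of 146 (2.74%, median -0.14). The peroxidase count was 3 without *ereb92*_0h replicate 1, and the oxidase count 1 without *ereb92*_0h replicate 1 or 3 or *ereb92*_6h replicate 1. The antioxidant count was 1 or 2 without any 1 library but *ereb92*_6h replicate 3.

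In metabolism, the highest share was that of fatty acid elongation and the cuticle, where 7 of 16 tested of 40 genes rose (43.8%, median 1.63). The 3-ketoacyl-CoA synthases of this list make the very long chains of waxes and cutin. One (Zm00001d047931) had 145, 181 and 86.3 CPM in *ereb92*_6h, against 4.45, 11.5 and 6.84 CPM in *ereb92*_0h, a log2 fold change of 4.18 (SE 0.43, edgeR adjusted p = 0.00129). Another (Zm00001d016438) had 121, 242 and 236 CPM in *ereb92*_6h, against 15.5, 19.5 and 14.9 CPM in *ereb92*_0h, a log2 fold change of 3.58 (SE 0.32, edgeR adjusted p = 0.000818). Synthase 12 (Zm00001d018455) had 20.6, 14 and 13.9 CPM in *ereb92*_6h, against 0.125, 0 and 0 CPM in *ereb92*_0h, a ratio of 350 with an exact 95% counting interval of 96.5 to 2900. Every imbibed library was above every dry one for these genes. Oxylipin and jasmonate genes rose in 7 of 31 (22.6%, median 1.11). 12-oxo-phytodienoic acid reductase2 (Zm00001d044906), of a family that reduces jasmonate precursors, had 95.1, 34.1 and 78.7 CPM in *ereb92*_6h, against 5.33, 3.48 and 6.51 CPM in *ereb92*_0h, and the lipoxygenase gene *tassel seed1* (Zm00001d003533) had 85.6, 72.4 and 59.1 CPM in *ereb92*_6h, against 15.9, 14.2 and 10.2 CPM in *ereb92*_0h.

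UDP-glycosyltransferases, which attach sugars to hormones and small molecules, rose in 28 of 109 tested of 207 genes (25.7%, median 0.67), of which 18 of 81 with at least 1 FPKM at 0 h, and 1 fell. UDP-glycosyltransferase 75B1 (Zm00001d039607) had 647, 182 and 231 CPM in *ereb92*_6h, against 5.26, 6.01 and 4.16 CPM in *ereb92*_0h, a log2 fold change of 6.10 (SE 0.57, edgeR adjusted p = 0.000934). UDP-glycosyltransferase 88A1 (Zm00001d038764) had 507, 298 and 444 CPM in *ereb92*_6h, against 46.2, 68.4 and 63.7 CPM in *ereb92*_0h. Replicate 1 was the highest imbibed library for both, and the groups did not overlap. Cytochrome P450 genes rose in 12 of 113 (10.6%), and CYP709C14 (Zm00001d006947) had 495, 692 and 567 CPM in *ereb92*_6h, against 14.4, 30 and 14.6 CPM in *ereb92*_0h, a log2 fold change of 4.89 (SE 0.38, edgeR adjusted p = 0.000598). Phenylpropanoid genes rose in 7 of 50 (14%), and shikimate O-hydroxycinnamoyltransferase (Zm00001d017186), a step towards lignin, had 173, 109 and 67.4 CPM in *ereb92*_6h, against 1.88, 2.61 and 2.21 CPM in *ereb92*_0h. Flavonoid genes rose in 3 of 26 (11.5%, median 0.01). Without *ereb92*_0h replicates 1 and 3 and *ereb92*_6h replicate 1 the glycosyltransferase count was 13, 13 and 15. The phenylpropanoid count was 4 without each *ereb92*_0h library, and the flavonoid count 5 without *ereb92*_6h replicate 3.

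The lists of central metabolism lay on both sides of the 5.87% of all tested genes. Glycolysis and fermentation had 3 of 85 (3.53%, median -0.24), with hexokinase7 (Zm00001d037689) at 178, 99.1 and 66 CPM in *ereb92*_6h, against 9.46, 5.14 and 9.93 CPM in *ereb92*_0h. Pyruvate decarboxylase1 (Zm00001d010588), the entry to ethanol fermentation, had 265, 144 and 12.7 CPM in *ereb92*_6h, against 0.564, 1.19 and 0.671 CPM in *ereb92*_0h, and its imbibed libraries spanned a wide range. The glycolysis count was 9 without *ereb92*_6h replicate 3. Starch and sucrose breakdown had 2 of 39 (5.13%), with the neutral invertase *CINV2* (Zm00001d050716) at 70.3, 78.4 and 86.7 CPM in *ereb92*_6h, against 26.2, 24.9 and 31.1 CPM in *ereb92*_0h. Trehalose metabolism had 2 of 18 (11.1%), with trehalose-6-phosphate synthase13 (Zm00001d020396) at 394, 445 and 158 CPM in *ereb92*_6h, against 21.6, 26.3 and 14.4 CPM in *ereb92*_0h, and lipid breakdown and the glyoxylate cycle had 2 of 34 (5.88%). With the replicate block the starch and trehalose counts were each 4. The starch count was 1 without any 1 *ereb92*_0h library or *ereb92*_6h replicate 1, the trehalose count 1 without any 1 *ereb92*_0h library or *ereb92*_6h replicate 2, and the lipid count 1 without any 1 library but *ereb92*_0h replicate 1. Nitrogen assimilation had 3 of 23 (13%), with a ferredoxin-nitrite reductase gene (Zm00001d052164) at 65.8, 20.4 and 17.2 CPM in *ereb92*_6h, against 0, 0 and 0.201 CPM in *ereb92*_0h, a ratio of 490 with a counting interval of 167 to 2380, and the list's count was 1 without *ereb92*_0h replicate 1 or 3.

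Among the transporters the highest share was that of the carriers of nitrogen compounds. Nitrate, amino acid and peptide transporters rose in 16 of 79 tested (20.3%, median 0.29), and *NRT1/PTR FAMILY 5.10* (Zm00001d038334) had 20.5, 14.3 and 7.64 CPM in *ereb92*_6h, against 0.125, 0.0791 and 0.335 CPM in *ereb92*_0h. ABC and MATE transporters rose in 13 of 90 (14.4%), and the ABC transporter G family member 40 gene Zm00001d044442 had 159, 309 and 294 CPM in *ereb92*_6h, against 8.52, 18.9 and 11.2 CPM in *ereb92*_0h, a log2 fold change of 4.30 (SE 0.41, edgeR adjusted p = 0.000966). Sugar transporters rose in 2 of 34 (5.88%), and sugar carrier protein C (Zm00001d021775) had 68, 27.1 and 24.9 CPM in *ereb92*_6h, against 0.251, 0 and 0.134 CPM in *ereb92*_0h. All of these were above every dry library at 6 h. Of the 15 tested aquaporins 0 rose (0 at an unadjusted p and 0 with DESeq2) and 1 fell. Without *ereb92*_0h replicates 1, 2 and 3 the nitrogen transporter count was 7, 8 and 9 and the ABC and MATE count 5, 5 and 4. Without *ereb92*_6h replicate 1 they were 9 and 4, and without *ereb92*_6h replicate 2 the ABC and MATE count was 6.

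The growth lists together had 4.52% of their tested genes up-regulated and the defence lists 9.23%, beside 5.87% of all tested genes. Exocyst subunits, which tether secretory vesicles, rose in 5 of 32 tested (15.6%), and the *EXO70B2* gene (Zm00001d038447) had 119, 103 and 52.9 CPM in *ereb92*_6h, against 10.7, 12 and 12.5 CPM in *ereb92*_0h. Actin, formin and tubulin genes rose in 7 of 134 (5.22%, median -0.12), and a second formin-like protein 18 gene (Zm00001d013163) had 348, 233 and 132 CPM in *ereb92*_6h, against 3.7, 0.316 and 1.14 CPM in *ereb92*_0h. Of the cell cycle and DNA replication genes 1 of 81 tested rose (1.23%, median -0.20), cyclin-U4-2 (Zm00001d015092) with 18.4, 20.7 and 12 CPM in *ereb92*_6h, against 2.88, 4.67 and 3.69 CPM in *ereb92*_0h. The formin and the cyclin were higher in each imbibed library than in any dry one. Of the histone genes 1 of 63 rose (1.59%, median -0.10), a count that was 2 with the replicate block or without *ereb92*_6h replicate 3 and 0 without any 1 *ereb92*_0h library or *ereb92*_6h replicate 1. The exocyst count was 3 without *ereb92*_0h replicate 2 or 3 or *ereb92*_6h replicate 1. Pathogenesis-related proteins and defensins rose in 5 of 36 (13.9%, median -0.09), and a thaumatin-like gene (Zm00001d028400) had 924, 249 and 152 CPM in *ereb92*_6h, against 20.3, 26.8 and 15.2 CPM in *ereb92*_0h. Their count was 3, 3 and 2 without *ereb92*_0h replicates 1, 2 and 3, and 2 and 3 without *ereb92*_6h replicates 1 and 2. Proteases rose in 6 of 78 (7.69%), a count that was 1 to 3 without any 1 library but *ereb92*_6h replicate 3, and protease and amylase inhibitors in 1 of 23 (4.35%), which was 2 with the replicate block.

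The stored seed programme stood at high levels, and 2 of its 133 tested genes rose. Of 30 tested LEA proteins and dehydrins 0 rose (2 at an unadjusted p, 3 with DESeq2 and 2 with the replicate block), of 14 oil-body proteins 0 and of 13 storage proteins 0 (0 at an unadjusted p and 0 with DESeq2 in both). Their median log2 changes were -0.30, -0.57 and -0.57. Dehydrin DHN1 (Zm00001d037894) had 10900, 15300 and 16200 CPM in *ereb92*_6h, against 19900, 32300 and 16800 CPM in *ereb92*_0h, a log2 fold change of -0.70 (SE 0.42, edgeR adjusted p = 0.451). Globulin-2 (Zm00001d034413), an embryo storage protein, had 8680, 37100 and 12100 CPM in *ereb92*_6h, against 9770, 59500 and 15900 CPM in *ereb92*_0h, a log2 fold change of -0.55 (SE 0.80, edgeR adjusted p = 0.783). Oleosin Zm-I (Zm00001d002768), which coats oil bodies, had 8290, 22300 and 17100 CPM in *ereb92*_6h, against 13500, 42200 and 16400 CPM in *ereb92*_0h, a log2 fold change of -0.60 (SE 0.58, edgeR adjusted p = 0.658). The groups overlapped for globulin-2 and oleosin Zm-I, where *ereb92*_0h replicate 2 was far above the other dry libraries, and all dry values of DHN1 lay above all imbibed ones. The other 2 of the 5 genes with most counts were metallothionein2 (Zm00001d029778), a metal-binding protein, and embryo specific protein1 (Zm00001d037988), with log2 fold changes of -0.48 (SE 0.50, edgeR adjusted p = 0.682) and -0.49 (SE 0.43, edgeR adjusted p = 0.617). Small heat shock proteins rose in 1 of 37 (0 with DESeq2 or the replicate block) and the larger chaperones in 1 of 39. The small heat shock count was 0 without any 1 library but *ereb92*_6h replicate 3, and the chaperone count 0 without any 1 library but *ereb92*_0h replicate 2 or *ereb92*_6h replicate 3. The stored seed programme together took 6.73, 12.4 and 10.2% of the counts in *ereb92*_6h, against 9.47, 18.7 and 10.6% in *ereb92*_0h, and the ranges overlapped.

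Few genes of the machinery that makes RNA and protein rose. Cytosolic ribosomal proteins rose in 3 of 333 tested (0.901%, median -0.38), translation factors in 0 of 90, ribosome biogenesis proteins in 0 of 45 and the proteasome in 0 of 74, each of the last 3 with 0 at an unadjusted p and 0 with DESeq2. One ribosomal member, 60S ribosomal protein L14-1 (Zm00001d047509), had 81, 42 and 20.8 CPM in *ereb92*_6h, against 1.69, 0.633 and 1.74 CPM in *ereb92*_0h. The second, Zm00001d033505, is described as a ribosomal protein S5/elongation factor G family member and had 741, 354 and 233 CPM in *ereb92*_6h, against 21.1, 33.6 and 11.7 CPM in *ereb92*_0h. Summed over the family, cytosolic ribosomal proteins took 3.58, 3.46 and 4.98% of the counts in *ereb92*_6h, against 5.74, 4.40 and 5.17% in *ereb92*_0h. Splicing factors rose in 2 of 126 (1.59%), RNA polymerase genes in 4 of 61 (6.56%) and pentatricopeptide repeat proteins, which process organelle RNA, in 13 of 382 (3.4%, median 0.39). The pentatricopeptide count was 5, 5 and 4 without *ereb92*_0h replicates 1, 2 and 3 and 5 and 7 without *ereb92*_6h replicates 1 and 2, the RNA polymerase count 1 or 2 without any 1 library but *ereb92*_6h replicate 3, and the splicing count 0 or 1 without any 1 library but *ereb92*_6h replicate 3.

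Respiratory chain genes of the nucleus rose in 0 of 98 (1 at an unadjusted p and 1 with DESeq2), and photosynthesis genes in 0 of 21 tested of 76 (0 at an unadjusted p and 0 with DESeq2). The respiratory count was 1 without *ereb92*_6h replicate 1. An external alternative NAD(P)H dehydrogenase (Zm00001d049597), a bypass of complex I, had 286, 237 and 233 CPM in *ereb92*_6h, against 82.1, 86.2 and 84.3 CPM in *ereb92*_0h, a log2 fold change of 1.58 (SE 0.19, edgeR adjusted p = 0.00253). The protein-coding genes and open reading frames of the mitochondrial genome had a median log2 change of 1.05 over 33 tested of 175, with 0 up-regulated (9 at an unadjusted p, 7 with DESeq2, 2 with the replicate block and 7 without *ereb92*_6h replicate 1). They took 0.0273, 0.0965 and 0.0886% of the counts in *ereb92*_6h, against 0.0348, 0.0536 and 0.0471% in *ereb92*_0h. Replicate 1 of *ereb92*_6h thus lay below every dry library. The mitochondrial ribosomal RNA genes are not in this list, and both that were tested, 26S (ZeamMr002) and 18S (ZeamMr004), rose, with log2 fold changes of 4.53 (SE 0.94, edgeR adjusted p = 0.0267) and 3.64 (SE 0.80, edgeR adjusted p = 0.0328). The 26S RNA had 4440, 2200 and 192 CPM in *ereb92*_6h, against 85.7, 110 and 100 CPM in *ereb92*_0h. The 18S RNA had 1090, 620 and 77.2 CPM in *ereb92*_6h, against 37.2, 58 and 48.2 CPM in *ereb92*_0h. Both were highest in replicate 1 and lowest in replicate 3 at 6 h. The libraries were made from poly(A) RNA, and mitochondrial transcripts mostly lack long poly(A) tails. None of the 114 plastid genome genes had enough counts to be tested.

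**Figure D3:**
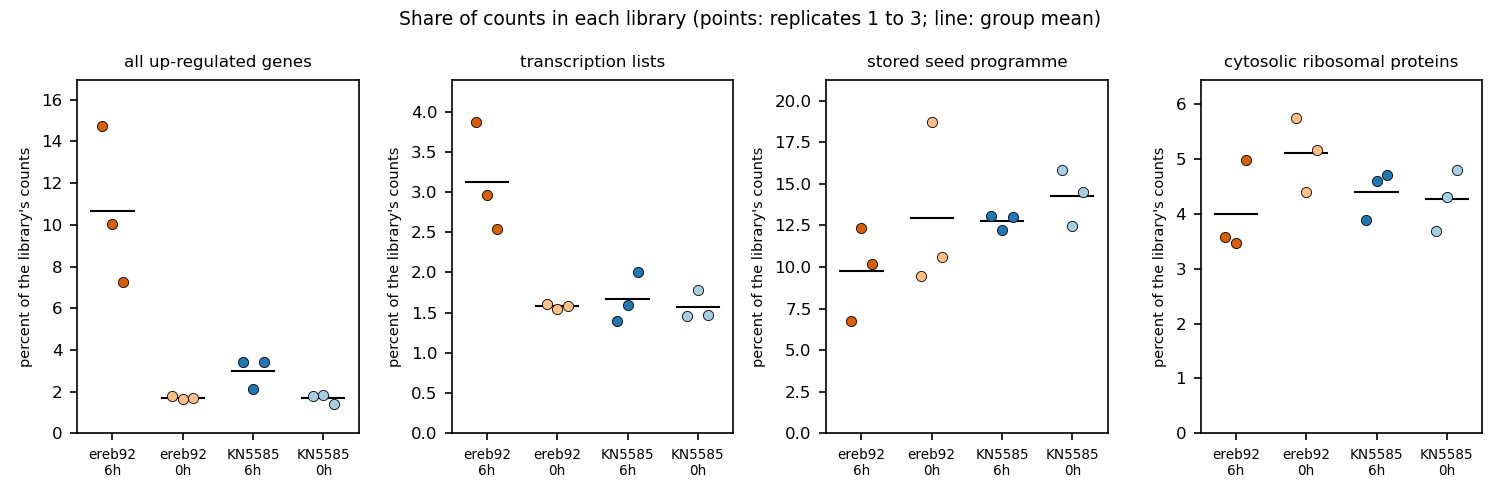
Percent of each library's counts taken by the 1385 up-regulated genes, the transcription lists, the stored seed programme and the cytosolic ribosomal proteins, by group with *ereb92*_6h left of *ereb92*_0h; each point is 1 library. The up-regulated genes take 7.26 to 14.7% in *ereb92*_6h against 1.64 to 1.77% in *ereb92*_0h, a gap fixed by their choice, while the ranges of the stored seed programme overlap.

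Few transcripts were lost. Of the 25 down-regulated genes, with a median log2 fold change of -1.73, 6 had at most 3 counts in every *ereb92*_6h library, and 6 were transcripts outside the reference annotation. The low temperature viability protein gene (Zm00001d047404, chromosome 9, 129014624 to 129018525), whose yeast relative takes part in export of the small ribosomal subunit, had 0, 0.129 and 0.0721 CPM in *ereb92*_6h, against 2.82, 2.29 and 1.88 CPM in *ereb92*_0h, a log2 fold change of -4.92 (SE 0.89, edgeR adjusted p = 0.0151). The arginine N-methyltransferase 2 gene (Zm00001d013219, chromosome 5, 6702456 to 6707820), which methylates proteins, had 22.9, 27.9 and 26.8 CPM in *ereb92*_6h, against 66.8, 51.5 and 97 CPM in *ereb92*_0h, a log2 fold change of -1.47 (SE 0.26, edgeR adjusted p = 0.0141). A peptidyl-prolyl cis-trans isomerase gene (Zm00001d042372), a protein-folding helper, had 28.8, 33.8 and 35 CPM in *ereb92*_6h, against 64.4, 64.6 and 75 CPM in *ereb92*_0h, a log2 fold change of -1.06 (SE 0.19, edgeR adjusted p = 0.0139). In these genes all imbibed values were below all dry ones, which the rule for naming falls required, and the first was close to absent.

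Only 3 down-regulated genes belonged to the lists. The aquaporin TIP3-2 gene (Zm00001d002952, chromosome 2, 27986031 to 27988042), a channel of the vacuole membrane typical of seeds, had 63.5, 77.2 and 55.3 CPM in *ereb92*_6h, against 138, 137 and 136 CPM in *ereb92*_0h, a log2 fold change of -1.07 (SE 0.20, edgeR adjusted p = 0.0167). A pectinesterase inhibitor domain gene (Zm00001d016741) had 5.12, 3.68 and 3.46 CPM in *ereb92*_6h, against 38.6, 7.52 and 57.1 CPM in *ereb92*_0h, and a limonoid UDP-glucosyltransferase gene (Zm00001d015623) had 0.0732, 0.194 and 0.144 CPM in *ereb92*_6h, against 0.877, 1.9 and 1.48 CPM in *ereb92*_0h. The dry aquaporin libraries were nearly equal, those of the inhibitor were not. Other named genes that fell were a UBX domain gene (Zm00001d006176, log2 fold change -1.09 (SE 0.20)), a stress responsive protein gene (Zm00001d022420, -2.01 (SE 0.48)), a cullin neddylation gene (Zm00001d052270, -1.54 (SE 0.37)), the ubiquitin-like *small ubiquitin-related modifier-variant1* (Zm00001d011308, -1.40 (SE 0.34)), a sterile alpha motif gene (Zm00001d005812, -1.18 (SE 0.27)), a LINE-1 retroelement gene (Zm00001d013277, -1.17 (SE 0.24)) and the gene Zm00001d002352 (-1.19 (SE 0.23)), beside an assembled transcript on chromosome 5 with an RNA polymerase dimerisation domain (-1.47 (SE 0.32)). These falls were close to the limit of the test. Of the 14 down-regulated genes named by the rule, 0 kept their call without each of the 6 libraries in turn. The methyltransferase lost it without *ereb92*_6h replicate 1 only, with a log2 fold change of -1.38, and the viability protein without each *ereb92*_0h library, with -4.79, -4.94 and -5.06. The aquaporin lost it without all but *ereb92*_6h replicate 2, with -1.11, -1.08, -1.08, -1.04 and -0.97. The genes with at most 3 counts in every *ereb92*_6h library numbered 1 with the replicate block, 1 and 0 without *ereb92*_0h replicates 1 and 3, and 3 without *ereb92*_6h replicate 1.

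The level before imbibition went with the share of genes that rose. Of the tested genes at 0.1 to 1 FPKM at 0 h 7.93% rose, of those at 1 to 10 FPKM 5.23%, of those at 10 to 100 FPKM 4.38% and of those over 100 FPKM 0.965% (9 of 933). The 240 tested genes at or under 0.1 FPKM passed the filter on low counts mainly through their 6 h libraries, so their 59.6% is no measure of a response. Transcription factors rose in larger shares than all genes in the first 3 of these classes, with 23.1, 18.6 and 19%. Stored seed genes rose in 2 of 38 at 1 to 10 FPKM (5.26%), about the share of all genes at that level. They rose in 0 of 42 at 10 to 100 FPKM and 0 of 51 over 100 FPKM, where few of all genes rose too. Median levels at 0 h were 46.3 FPKM for the tested stored seed genes, 4.01 FPKM for the transcription factors and 9.31 FPKM for the gene expression machinery.

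**Figure D4:**
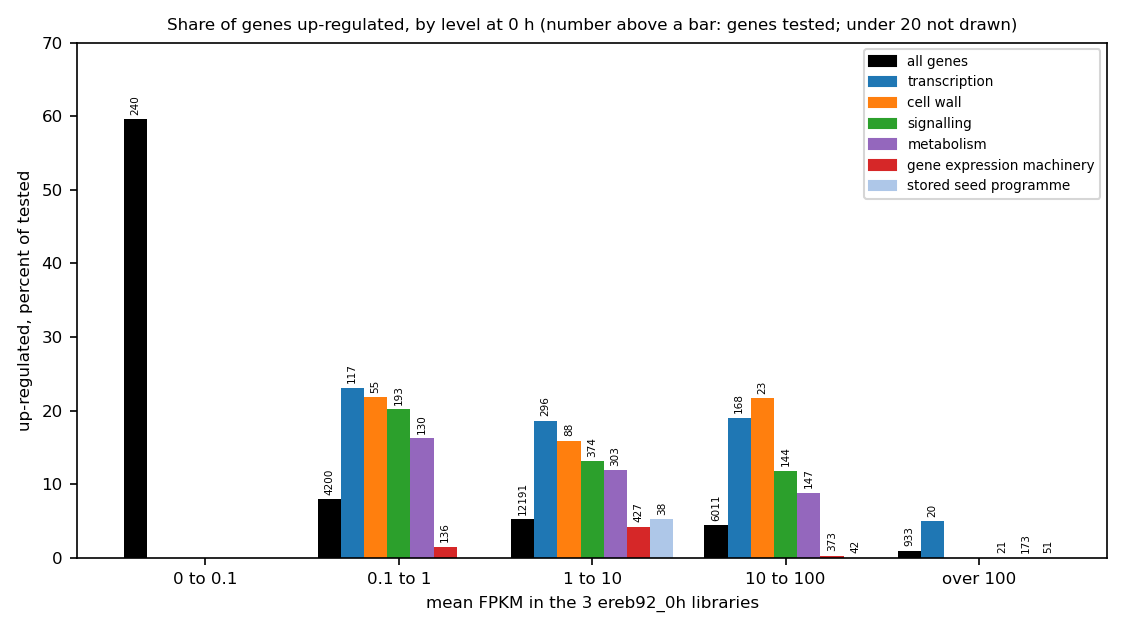
Percent of tested genes called up at 6 h in *ereb92*, by mean FPKM at 0 h, for all genes and 6 roles; the number above each bar is the number of genes tested, and classes under 20 tested genes are not drawn. Transcription, cell wall and signalling bars exceed those of all genes at 0.1 to 10 FPKM, and the class up to 0.1 FPKM is set by the filter on low counts.

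Gene length and position showed smaller differences. The share of up-regulated genes was 4.96 to 7.51% in 9 of 10 length groups and 2.76% in the longest, whose median length was 6820.5 bases. Up-regulated genes had a median length of 1736 bases, down-regulated genes 1413 bases and all tested genes 1851 bases. By chromosome the share ran from 4.63% on chromosome 4 to 6.94% on chromosome 9. Only up-regulated members were searched for neighbours, so no share of neighbours that rose is given. In several places such members of a list lay within 50 kb of each other. Besides the binding factors and GRAS genes above, these were the jasmonate reductases Zm00001d044906 and Zm00001d044908 on chromosome 9 (log2 fold changes 3.76 and 3.99), a UDP-glycosyltransferase 73D1 pair on chromosome 3 (Zm00001d039642 and Zm00001d039643, 4.08 and 3.42), cytochrome P450 pairs on chromosomes 1, 2 and 3, and ABC transporter G family member 40 copies on chromosome 3 (Zm00001d044442 and Zm00001d044443, 4.30 and 1.38). The study does not state how multi-mapping reads were counted, so the split between such copies, and of genes that overlap on opposite strands, is uncertain.

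The wild type gives the values of the same time step without the mutation. In KN5585_6h vs KN5585_0h, 22282 genes were tested and 1 was up-regulated (0.00449%) and 0 down-regulated (230 and 273 at an unadjusted p), with a common dispersion of 0.298, against 0.184 in the *ereb92* fit, so the wild type comparison was the noisier. The study, with DESeq2 and equal limits in its methods, reported far more changed genes in KN5585 at 6 h than the 1 here. It reported more up-regulated genes in *ereb92* than the 1385 too. DESeq2 was not run here for KN5585 alone, so a low count by edgeR does not show that the wild type stayed unchanged. Of the 1385 genes, 1123 were tested in KN5585 and 875 of these (77.9%) had a positive change there, with a median log2 change of 0.48; 110 rose and 0 fell at an unadjusted p. Their median change over KN5585_0h was -0.16, 0.31 and 0.92 in the 3 KN5585_6h libraries, against 2.76, 2.19 and 1.82 for the *ereb92*_6h libraries over *ereb92*_0h. They took 3.42, 2.13 and 3.40% of the counts in KN5585_6h, against 1.80, 1.83 and 1.40% in KN5585_0h. The genes were chosen in the *ereb92* libraries, so a smaller value in KN5585 was fixed in part by the choice.

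Single genes showed how far the wild type libraries differed. Formin-like protein 18 (Zm00001d034221) had 0.828, 0.687 and 20.1 CPM in KN5585_6h, against 0, 0 and 0 CPM in KN5585_0h, and the binding protein gene Zm00001d021208 had 26, 15.6 and 154 CPM in KN5585_6h, against 1.74, 16.7 and 7.17 CPM in KN5585_0h. NAC domain-containing protein 2 (Zm00001d019207) had 12.8, 36.6 and 235 CPM in KN5585_6h, against 8.78, 14.1 and 7.32 CPM in KN5585_0h, and U-box domain-containing protein 16 (Zm00001d038471) had 5.48, 21.7 and 230 CPM in KN5585_6h, against 18.4, 10.7 and 5.58 CPM in KN5585_0h. In each of these KN5585_6h replicate 3 was far above the other 2 replicates. Median log2 changes of the lists were 0.97 in *ereb92* and 0.13 in KN5585 for AP2/ERF factors, 1.03 and 0.38 for WRKY factors, 1.2 and 0.27 for GRAS factors, 1.55 and 0.13 for xyloglucan enzymes, 1.63 and 0.32 for fatty acid elongation, and 0.80 and 0.13 for receptor-like kinases. They were -0.38 and -0.08 for ribosomal proteins, -0.57 and -1.55 for storage proteins, -0.24 and -0.94 for aquaporins and 1.05 and 2.41 for the mitochondrial genome. Each median is over the members tested in its own fit, such as 112 and 102 AP2/ERF factors, 28 and 22 xyloglucan enzymes and 13 and 20 storage proteins. A gene that passed the filter only through *ereb92*_6h counts enters the *ereb92* median alone, so paired medians are not over the same genes.

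**Figure D5:**
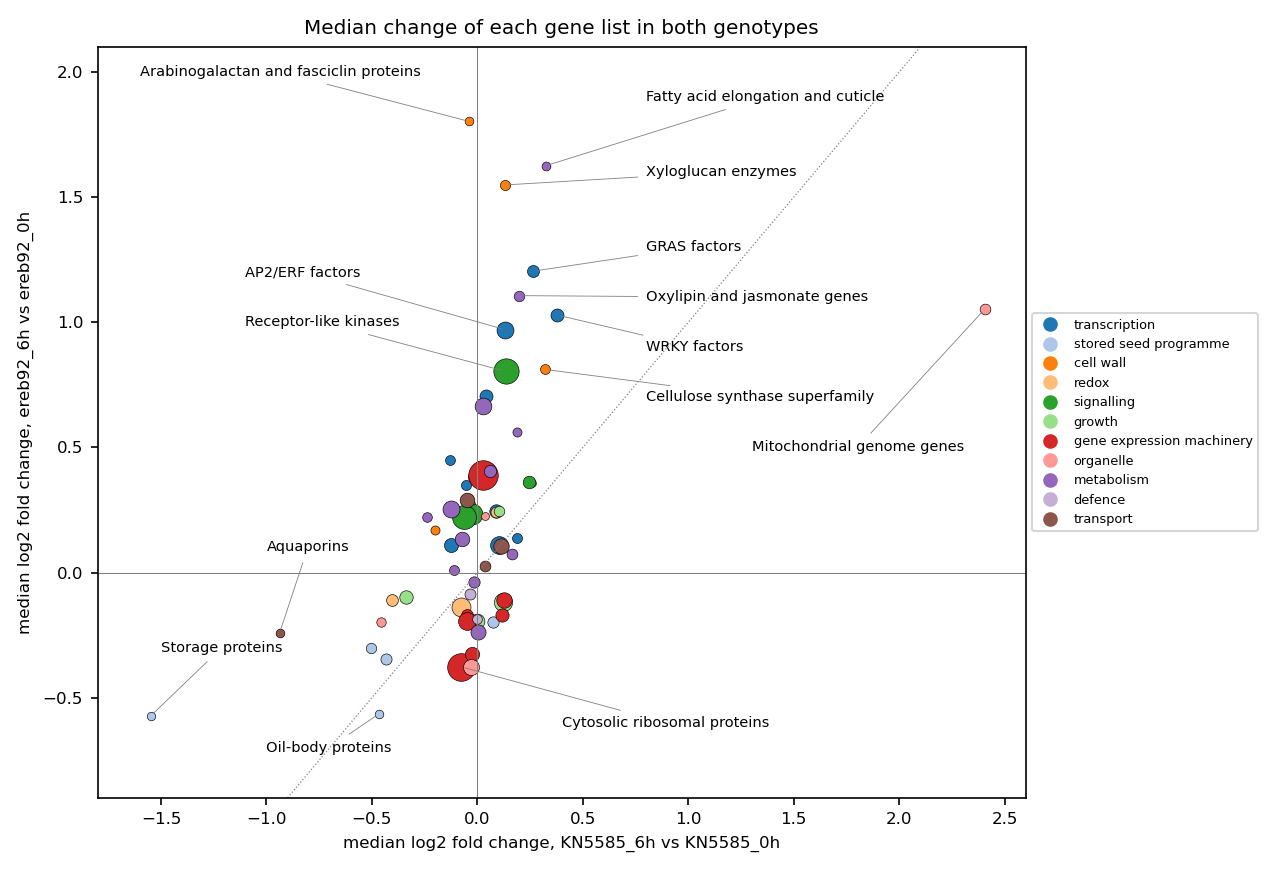
Median log2 change of each list in *ereb92*_6h vs *ereb92*_0h (vertical axis) and in KN5585_6h vs KN5585_0h (horizontal axis), for lists with at least 8 tested members; point size grows with the number tested, and the dotted line marks equal medians. Most regulatory and cell wall lists lie above the line, such as GRAS factors at 1.2 and 0.27, and the mitochondrial genome lies below it at 1.05 and 2.41. Each median is over the members tested in its own fit, so the axes do not cover the same genes.

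The difference between the genotypes was tested by the interaction of genotype and time over all 12 libraries. Of 25567 tested genes, 8 had a larger change in *ereb92* (0.0313%) and 0 a smaller one (1497 and 220, or 5.86 and 0.86%, at an unadjusted p, and 367 and 15 with DESeq2). For nearly all of the up-regulated genes a difference from the wild type was therefore not shown by edgeR. The DNA-binding protein gene *RAV1* (Zm00001d043782) had 646, 437 and 211 CPM in *ereb92*_6h, against 10.3, 8.15 and 9.33 CPM in *ereb92*_0h, and in the wild type 5.03, 9.56 and 15.2 CPM in KN5585_6h, against 6.49, 11.8 and 11.2 CPM in KN5585_0h. The interaction was 5.53 on the log2 scale (SE 0.64, edgeR adjusted p = 0.0333), and the *ereb92*_6h libraries alone stood out from the other 9. With the replicate block 0 genes passed. The count of 8 was 42 without *ereb92*_6h replicate 3, 13 without KN5585_0h replicate 1, 281 without KN5585_6h replicate 3 and 0 without any 1 of the other 9 libraries.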

How the data were processed

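The data are RNA-seq libraries of whole maize seeds. The authors aligned reads to the B73 RefGen_v4 genome with Hisat2 and counted them per gene with featureCounts, and deposited the counts unnormalized, as whole numbers. FPKM values deposited by the authors were used for levels only. The deposited file also holds the authors' means of normalized counts per group, log2 fold changes and p-values from their DESeq2 comparisons, which were not used. Strandedness and the counting of multi-mapping reads are not given in the sources used here, and 0 columns of per-sample values were left unused.

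The 6 *ereb92* libraries were fitted alone with edgeR 4.0.16 (limma 3.58.1, R 4.3.3, data.table version 1.17.8): TMM factors, filterByExpr, and the quasi-likelihood test of glmQLFit and glmQLFTest. Calls needed an at least 2-fold change and a p under 0.05 after Benjamini-Hochberg adjustment. KN5585 was fitted in the same way, and the interaction over all 12 libraries. Depth was 12771663 to 15383586 counts per library, and 3 counts per library were the floor for fold changes against a group at 0. Medians of lists were the same with such genes set to their bound. Exact permutation of 3 against 3 libraries gives no p below 0.1 and was not used. The alternatives were other scaling factors, other filters, 1 fit over all 12 libraries, a replicate block, DESeq2 1.42.0, a robust fit, glmTreat with a fold of 1.2, and each library left out. Deviations of same-numbered libraries correlated at 0.393, 0.271 and 0.194. The main fits and the main interaction test used no replicate term, so their p-values ignore this pairing. It entered only through the replicate block among the alternatives. The steps were tested on simulated data.

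The naming rule took *ZmEREB92* and *ZmEF1a*, the 12 largest rises and all falls up to 25 that had a description, no overlap and at least 1 FPKM in a group, from each list the 2 called members with the highest mean FPKM and the 1 with the largest change in each direction, the 5 genes with most counts, and every interaction gene. A list member could go unnamed. The comparison, the members, the lists and the tests were chosen with earlier results of these data known. Sequences were not used here, and positions are those the authors gave.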

Additional observations from a re-analysis of the deposited data

Results flagged for a closer look

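The 6 h change was larger in *ereb92* than in KN5585 for 8 genes by the interaction test (edgeR's quasi-likelihood test over all 12 libraries, Benjamini-Hochberg adjustment), and none of the 8 passed with the replicate block. The values below are the *ereb92* change minus the KN5585 change on the log2 scale. *RAV1* (Zm00001d043782) had 5.53 (SE 0.64, adjusted p = 0.0333), and its values stand in the report. An actin-7 gene (Zm00001d032480) had 9.82 (SE 1.21, adjusted p = 0.0333), with 56.8, 50.5 and 15.2 CPM in *ereb92*_6h, against 0.626, 0.712 and 0.671 CPM in *ereb92*_0h and 0, 0.125 and 0 CPM in KN5585_6h, against 0.183, 1.46 and 0.679 CPM in KN5585_0h. The *ereb92* change alone ran from 5.61 to 6.30 on the log2 scale over the alternatives. The rest of the 9.82 comes from KN5585_6h values at or near 0, so this fitted difference is no bound. A CHY and RING zinc finger gene (Zm00001d032810) had 4.14 (SE 0.58, adjusted p = 0.0458), with 415, 417 and 192 CPM in *ereb92*_6h, against 18.3, 15.7 and 13.8 CPM in *ereb92*_0h and 11.5, 11.6 and 25.8 CPM in KN5585_6h, against 8.5, 19.3 and 12.2 CPM in KN5585_0h. In all 3 genes each *ereb92*_6h library was above every one of the other 9 libraries.

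Hexokinase7 (Zm00001d037689) had 3.80 (SE 0.54, adjusted p = 0.0458), with 14.1, 12.7 and 23 CPM in KN5585_6h, against 18.6, 16.3 and 14.6 CPM in KN5585_0h beside the *ereb92* values in the report. A protein binding gene (Zm00001d021221) had 3.07 (SE 0.42, adjusted p = 0.0458), with 141, 71.8 and 69.0 CPM in *ereb92*_6h, against 8.14, 5.85 and 7.11 CPM in *ereb92*_0h and 9.94, 10.1 and 10.9 CPM in KN5585_6h, against 7.13, 4.83 and 7.47 CPM in KN5585_0h. A membrane protein gene (Zm00001d029667) had 4.62 (SE 0.65, adjusted p = 0.0458), with 52.0, 40.4 and 34.6 CPM in *ereb92*_6h, against 1.13, 1.11 and 1.14 CPM in *ereb92*_0h and 3.38, 4.50 and 6.33 CPM in KN5585_6h, against 1.01, 4.39 and 3.85 CPM in KN5585_0h. Each *ereb92*_6h library was again above the other 9.

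A long cell-linked locus gene (Zm00001d028838) had 6.94 (SE 1.01, adjusted p = 0.0485), with 295, 428 and 159 CPM in *ereb92*_6h, against 1.63, 0.237 and 0.872 CPM in *ereb92*_0h and 1.15, 0.812 and 3.16 CPM in KN5585_6h, against 1.19, 0.445 and 0.377 CPM in KN5585_0h. A gene for a regulator of Vps4 activity (Zm00001d033714) had 5.24 (SE 0.77, adjusted p = 0.0485), with 25.2, 30.0 and 21.3 CPM in *ereb92*_6h, against 0.376, 0.158 and 0.201 CPM in *ereb92*_0h and 2.04, 0.5 and 1.2 CPM in KN5585_6h, against 0.366, 0.573 and 0.453 CPM in KN5585_0h. Both adjusted p-values lie close to 0.05.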

How the results depend on the processing

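The one-sided rise was the same in direction under every alternative run, but the counts moved. Up-regulated genes numbered 794 with all 12 libraries in 1 fit and 2120 with DESeq2, against 1385, and 742 to 1593 with 1 library left out. Down-regulated genes, 25, numbered 15 with library size alone, 49 without a filter, 9 with all 12 libraries, 49 with the replicate block, 95 with DESeq2 and 5 to 139 with 1 library left out. The 112 switched-on genes were 175 without a filter, 0 with at least 10 counts in every library (which removes them), 30 with all 12 libraries, 223 with DESeq2 and 45 to 139 with 1 left out. The 6 lost genes were 0, 1, 1 and 13 with at least 10 counts, all 12 libraries, the replicate block and DESeq2, and 0 to 8 with 1 left out. List members up, 443, were 261 with all 12 libraries and 255 to 484 with 1 left out. List members down, 3, were 5 with upper-quartile factors, 1 with library size alone, 8 without a filter, 1 with all 12 libraries, 10 with the replicate block, 18 with DESeq2 and 0 to 36 with 1 left out. Interaction genes larger in *ereb92*, 8, were 0 with the replicate block, 2 with library size alone, 105 without a filter, 367 with DESeq2 and 0 to 281 with 1 left out, and smaller ones, 0, were 1 without a filter, 15 with DESeq2 and 0 to 3 with 1 left out. With 1 library left out the log2 change of globulin-2 (Zm00001d034413) ran from -1.45 to 0.59 and that of oleosin Zm-I (Zm00001d002768) from -0.92 to 0.082; both highest values came without *ereb92*_0h replicate 2, were opposite in sign and were not called. Beyond reduced tests and samples, the cause was not tested.

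Of 136 named genes that rose, 95 kept the call without each library, 103 under every other alternative and 89 under all; of 14 that fell, 0, 4 and 0 did. The block ended 8 named calls, and moved no count by over 1.5 times beyond those given here or beside the results; smaller moves were frequent, such as 112 to 89 switched-on genes and 27 to 35 calcium sensors and kinases. Upper-quartile factors moved the median of all genes to -0.13, against -0.02, and the median changes of the MYB, starch, lipid breakdown, flavonoid, sugar transporter, ABC and MATE and pathogenesis-related lists changed sign between scalings. Depth limits genes under 3 counts per library.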

Other observations

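Groups outside the lists were picked after their values were seen, from names frequent among the up-regulated genes, so their counts are descriptions. Of the SRC2 proteins with a C2 domain, whose relatives bind membranes, 4 of 6 tested rose (median log2 change 3.96, against 1.62 over 4 tested in KN5585). The Src2-like gene Zm00001d011919 had 11515, 15994 and 7029 counts in *ereb92*_6h, against 541, 678 and 514 counts in *ereb92*_0h, a log2 fold change of 4.29 (SE 0.37). Of the wound-responsive proteins 5 of 12 tested rose (41.7%), 3 of them neighbours on chromosome 2 (Zm00001d002158, Zm00001d002159 and Zm00001d002160, with log2 fold changes of 6.26, 4.45 and 5.61). Of the VQ motif proteins, which bind WRKY factors, 5 of 12 rose (41.7%), and of the ZIM motif proteins, which include repressors of jasmonate signalling, 6 of 21 (28.6%). An EXORDIUM gene (Zm00001d018107), of a family linked to brassinosteroid-driven growth in Arabidopsis, had 12201, 9622 and 5969 counts, against 61, 17 and 12 counts, a log2 fold change of 8.33 (SE 0.67). The LOB domain gene Zm00001d038717, described as a seed specific protein, had 13789, 9933 and 3069 counts, against 22, 66 and 49 counts, a log2 fold change of 7.57 (SE 0.76). In all of these genes each imbibed library exceeded each dry one.

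Galacturonosyltransferases, which build pectin, rose in 7 of 26 tested (26.9%), SAUR proteins, small auxin-responsive proteins, in 5 of 18 (27.8%), genes described by the words aspartyl protease in 12 of 54 (22.2%), type 2C protein phosphatases in 14 of 84 (16.7%), disease resistance proteins in 6 of 40 (15%), F-box proteins in 18 of 166 (10.8%) and transposon-related genes in 17 of 288 (5.9%, and 1 fell), beside 5.87% of all tested genes. The aspartyl protease group was not filtered against the protease list. Its risen members include assembled retroelement transcripts on chromosomes 1, 5 and 8, which are counted among the transposon-related genes too. The 15 up-regulated genes with most counts at 6 h took 2.12, 1.32 and 0.825% of the counts in *ereb92*_6h, against 0.124, 0.127 and 0.122% in *ereb92*_0h. One of them was the mitochondrial 26S ribosomal RNA (ZeamMr002), with 60673, 34098 and 2662 counts, against 1368, 1396 and 1494 counts. The nuclear 5.8S ribosomal RNA gene ENSRNA049479549 had 2899, 708 and 12 counts, against 16, 10 and 16 counts, and *ereb92*_6h replicate 3 lay within the dry range. The libraries were made from poly(A) RNA, and what sets these counts was not tested.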
